A study of Locusta migratoria with 12 samples.

Results

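miR-8 was followed through 3 rows of a small RNA count table: lmi-miR-8-3p, the major 3p form, tca-miR-8-5p, the 5p arm, and dme-miR-8-3p, a minor 3p form. They were chosen by name, as rows of an arthropod miRNA numbered exactly 8 with the arms kept apart, and are 3 of the 101 miRNAs left after rows that count the same reads were joined, out of 5500 names with counts. The libraries came from the fat body of adult female migratory locusts (Locusta migratoria) taken 0, 2, 4 and 6 days after eclosion, when the adult emerges, and each age has 3 libraries. The labels give no treatment, strain or genotype, and do not say whether the libraries of an age came from separate animals or pools, so that p-values reflect the spread among the libraries alone, and this spread may be technical.

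A miRNA precursor is a hairpin with 2 arms, and cleavage releases a duplex of the 5p and the 3p strand, of which 1 is usually kept in the silencing complex while the other is lost. miR-8 is the insect member of the family that vertebrates call miR-200, and in Drosophila its 3p strand is the abundant, active product. In the fly fat body miR-8 represses u-shaped, an inhibitor of insulin signalling, and so promotes growth, and ecdysone signalling lowers its expression. In the mosquito Aedes aegypti, fat body miR-8 is needed for egg development after a blood meal, and in the brown planthopper miR-8-5p targets a membrane-bound trehalase.

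The table held 43 names of miR-8, of which 35 had counts and 8, of flatworms, had none. Only the rows lmi-miR-8-3p, of the locust, and api-miR-8, of the pea aphid, were joined in the major 3p form. The aphid row held between 0.0738% and 0.0937% of the locust row's counts in each of the 12 libraries, so it carried almost none of the signal. The 5p form joined 7 rows, and the locust row lmi-miR-8-5p differed from tca-miR-8-5p by at most 3 counts in any library. The minor 3p form joined 26 rows, 24 of them of arthropods, from flies, mosquitoes, bees, wasps, moths, a beetle, a tick and a water flea. Of these, 21, with dme-miR-8-3p itself among them, held exactly equal counts in all 12 libraries. From this it was inferred that the same reads were counted under each name. Of the 26 rows, 3 were of moths or butterflies.

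**Figure D1:**
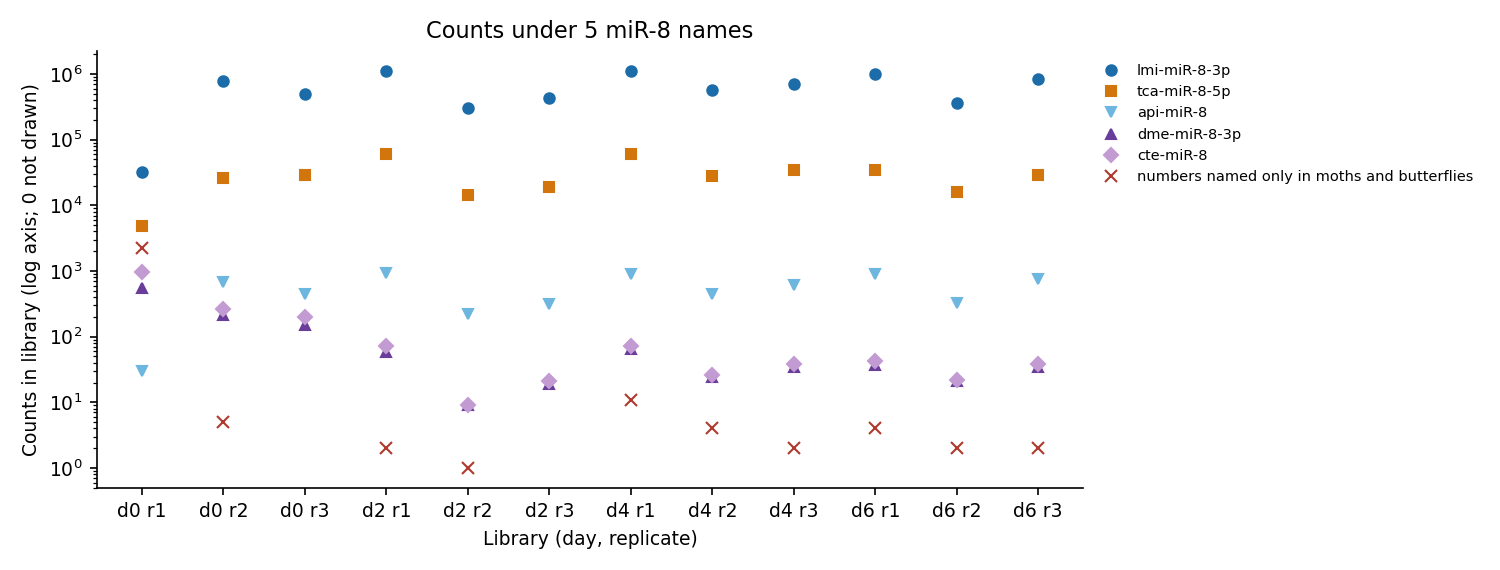
Counts (log axis) under 5 miR-8 names in each of the 12 libraries, with the summed counts of miRNA numbers that the table names only in moths and butterflies (crosses). The major form, the 5p arm and api-miR-8 are lowest in day 0 replicate 1, where the minor form and cte-miR-8 are highest, at 555 and 957 counts, and where the crosses reach 2214 against at most 11 elsewhere.

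The joined miRNAs came to between 385079 and 2313523 counts per library. Day 0 replicate 1 was the shallowest and stood apart: its median correlation with the other libraries was 0.851 across miRNAs, against 0.932 to 0.979 for the others, and it held 2214 counts of miRNA numbers named only in Lepidoptera against 0 to 11 in the others. The comparisons with day 0 are therefore given with and without it. Muscle markers (miR-1 and miR-133, 4 rows tested) summed to 364 to 3381 normalised CPM at day 0, 524 to 1284 at day 2, 90.8 to 296 at day 4 and 146 to 813 at day 6. Of the muscle rows, aca-miR-1a-3p and pma-miR-1b are named for vertebrates and were joined to no row with an arthropod name. From day 0 to day 6 the muscle rows went different ways. In edgeR, isc-miR-1 had a log2 change of -2.65 (adjusted p = 0.0348) and aca-miR-1a-3p of 4.12 (adjusted p = 0.00579), where 14.7% of miRNAs were called higher and 25.3% lower. pma-miR-1b (-2.09) and dpe-miR-133 (0.83) did not pass. Without day 0 replicate 1 the 4 values were -3.18, 3.85, -2.56 and 2.16, and pma-miR-1b passed as well (adjusted p = 0.0267), with 20.0% and 25.3% called. The gut marker miR-281 summed to 107 to 1547, 190 to 1107, 82.2 to 270.4 and 69.9 to 675 CPM at days 0, 2, 4 and 6, while miR-958 was at 0. Of the nervous system markers, miR-7 summed to 525 to 1045, 603 to 902, 634 to 869 and 556 to 1066 CPM, and miR-124 and miR-137 reached at most 15 and 28 counts in any library. The ovary markers miR-309 and miR-318 were at 0, as was miR-206 of the muscle list, for which the table has no arthropod name. miR-989 had 113 counts under its most abundant name, bmo-miR-989a of the silkworm, all in day 0 replicate 1. No miRNA that defines the fat body was listed, so the tissue label could be compared only with markers of other tissues, and their part in the results was not tested.

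The major 3p form stood higher at every later age than at eclosion and was the most abundant miRNA in 11 of the 12 libraries; in day 0 replicate 1 it ranked 5. Its level, in CPM normalised by TMM factors, which set libraries level at the typical miRNA, was 69436, 339428 and 232711 CPM in day 0 replicates 1, 2 and 3. It was 491251, 381530 and 398666 CPM at day 2, 545872, 540922 and 563367 CPM at day 4, and 740389, 624558 and 688719 CPM at day 6. No library of an earlier age overlapped with a later age, so the 4 ages lay in order, with the widest spread at day 0. In bulk tissue, fewer cells of a type and less RNA per cell cannot be told apart, and the scale is relative to the other miRNAs.

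Against day 0, miR-8-3p was 2.57-fold higher at day 4 (log2 change 1.36, SE 0.42, 3 libraries per age; adjusted p = 0.0294, edgeR's quasi-likelihood test with Benjamini-Hochberg adjustment over the 95 miRNAs tested). At day 6 it was 3.2-fold higher (log2 change 1.68, SE 0.43; adjusted p = 0.00994). At day 2 the log2 change was 0.99 (SE 0.42) and did not pass (adjusted p = 0.122). For reference, 5.26%, 10.5% and 14.7% of all miRNAs tested rose at days 2, 4 and 6, so that miR-8-3p was among the minority called higher at days 4 and 6. In the test over the 4 ages, which called 25.3% of miRNAs, miR-8-3p had an adjusted p of 0.0511 in edgeR.

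Without day 0 replicate 1, all of these passed in edgeR. The log2 changes were 0.57 (SE 0.17; adjusted p = 0.031), 0.94 (SE 0.17; adjusted p = 0.00182) and 1.26 (SE 0.17; adjusted p = 0.000258) at days 2, 4 and 6, where 10.5%, 15.8% and 20.0% of miRNAs were called higher, and the adjusted p over the 4 ages was 0.00119, where 38.9% were called. Both the rise and its error were smaller than in the fit of all 12 libraries. Over the 4 ages miR-8-3p was also called without day 0 replicate 2 (adjusted p = 0.0146). The day 2 change also passed without day 0 replicate 2, at 1.37 (adjusted p = 0.0286). The day 4 call ended without any 1 of the 3 day 4 libraries, at 1.31 to 1.35 (adjusted p = 0.0698 to 0.0774), whereas that of day 6 held whichever single library was left out.

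**Figure D2:**
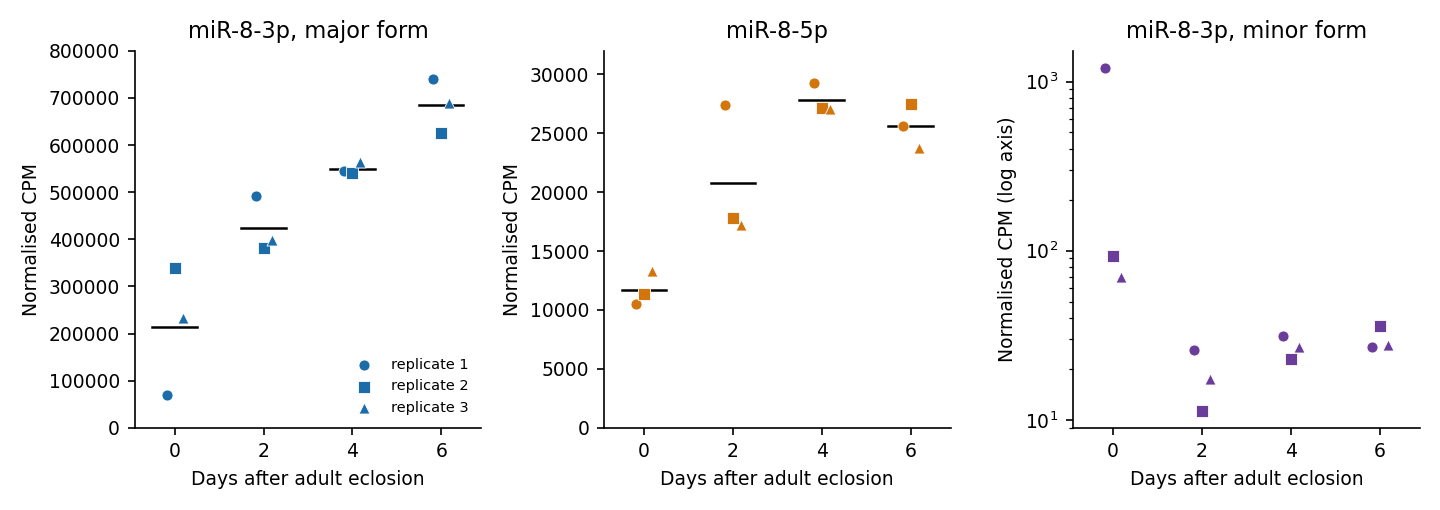
Level of each form in each library by age, in normalised CPM (linear axes from 0 for the major 3p form and the 5p arm, log axis for the minor form); bars are the means of 3 libraries, not drawn for the minor form. The major form stands in order of age without overlap, the 5p arm is highest on average at day 4, and the minor form is highest in the 3 day 0 libraries.

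Between the later ages, the level of miR-8-3p went on in the same direction in smaller steps. Its log2 change was 0.38 (SE 0.42) from day 2 to day 4, 0.32 (SE 0.42) from day 4 to day 6 and 0.69 (SE 0.42) from day 2 to day 6. None of these passed in the fit of all 12 libraries, in which edgeR called 0 of 95 miRNAs (0.0%) in each comparison, against 5, 6 and 14 at an unadjusted p under 0.05 and 1, 0 and 4 called by DESeq2. In a fit of the 9 later libraries alone, added after seeing the data, the change from day 2 to day 6 was 0.69 (SE 0.12; adjusted p = 0.0087), in a comparison where 2.11% of miRNAs were called higher. It also passed without day 0 replicate 1 (adjusted p = 0.017 in edgeR, with 3.16% called higher). These comparisons share their estimate of the spread with the libraries fitted, and the error fell from 0.42 to 0.12 when the day 0 libraries were left out. In fits of only the libraries of the 2 ages compared, all 3 steps passed, at 0.43 (adjusted p = 0.0378), 0.38 (adjusted p = 0.0256) and 0.67 (adjusted p = 0.0123), with 3.19%, 1.08% and 1.09% of miRNAs called higher. Fits of this kind did not call miR-8-3p against day 0, at 1.40 for day 4 (adjusted p = 0.148) and 1.59 for day 6 (adjusted p = 0.0929).

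**Figure D3:**
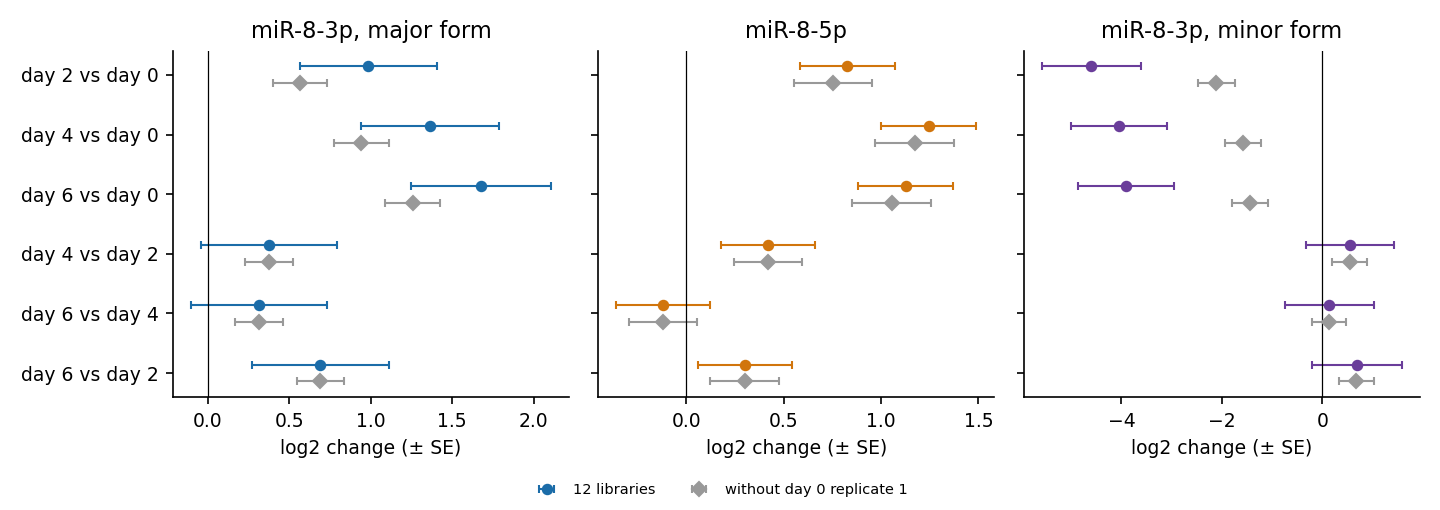
log2 change with its SE for each form in 6 comparisons of ages, from the fit of 12 libraries (coloured circles) and from the fit without day 0 replicate 1 (grey diamonds). For the major 3p form the comparisons with day 0 are smaller and their errors shorter without that library, for the 5p arm both fits lie close together, and for the minor form the changes with day 0 move from between -4.60 and -3.91 to between -2.11 and -1.44.

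As a share of the library, the measure that needs no scaling factor, the major 3p form took 8.31%, 35.8% and 26.9% of the counts in the 3 day 0 libraries. At day 2 it took 47.4%, 43.1% and 43.7%, at day 4 52.8%, 50.9% and 54.9%, and at day 6 59.1%, 59.4% and 58.5%. The mean share was 23.6% ± 14 (SD, n = 3) at day 0, 44.7% ± 2.32 at day 2, 52.9% ± 2.01 at day 4 and 59.0% ± 0.489 at day 6. From day 4 on, most counts of every library were thus of this strand, and the libraries of day 6 lay within 1 percentage point of each other. The 95% Wilson interval of day 6 replicate 1 ran from 59.0% to 59.2%; such intervals cover counting error only, since PCR reads without molecular identifiers are not independent molecules. The size of the share depends on joining the rows, because most other miRNAs are counted again under many names and miR-8-3p is not. With every row of the table in the denominator it was 0.28% to 2.33% at day 0 and 6.32% to 6.91% at day 6. With the distinct profiles of each joined miRNA summed, it was 0.803% to 6.43% at day 0 and 15.1% to 16.5% at day 6.

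The shares of the 4 ages did not overlap (exact permutation test over the 369600 divisions of the 12 libraries, p = 6.49e-05, the smallest it can give, and 0.00039 after Benjamini-Hochberg adjustment over the 6 such tests made). Over days 2, 4 and 6 alone the exact test also gave its smallest p, 0.00357. Each pair of ages differed in the same direction in all 3 libraries, with p = 0.1 in the exact two-sided permutation test, the smallest that 3 against 3 allow. A share rises when the rest of the library falls, so miR-8-3p was also set against miR-276-3p, the next most abundant miRNA by total counts, in the same library. The ratio uses the locust row lmi-miR-276-3p itself, which held 96.3% to 97.4% of the counts of the most abundant of its joined rows.

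There were 1.28, 2.29 and 1.62 counts of miR-8-3p per count of lmi-miR-276-3p in the day 0 libraries. The ratio was 4.70, 3.26 and 3.48 at day 2, 4.77, 4.18 and 5.94 at day 4, and 7.29, 7.65 and 8.26 at day 6. Days 2 and 4 overlapped, while day 0 lay below and day 6 above all other libraries (exact permutation test over the 4 ages, p = 0.00013, adjusted over 6 tests to 0.00039). miR-276-3p, tested with the counts of its most abundant row, had a log2 change of -0.37 (SE 0.33, not called) from day 0 to day 6, and fell by 0.70 (SE 0.15; adjusted p = 0.00306 in edgeR) without day 0 replicate 1. Part of the change in this ratio therefore lay in its denominator.

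**Figure D4:**
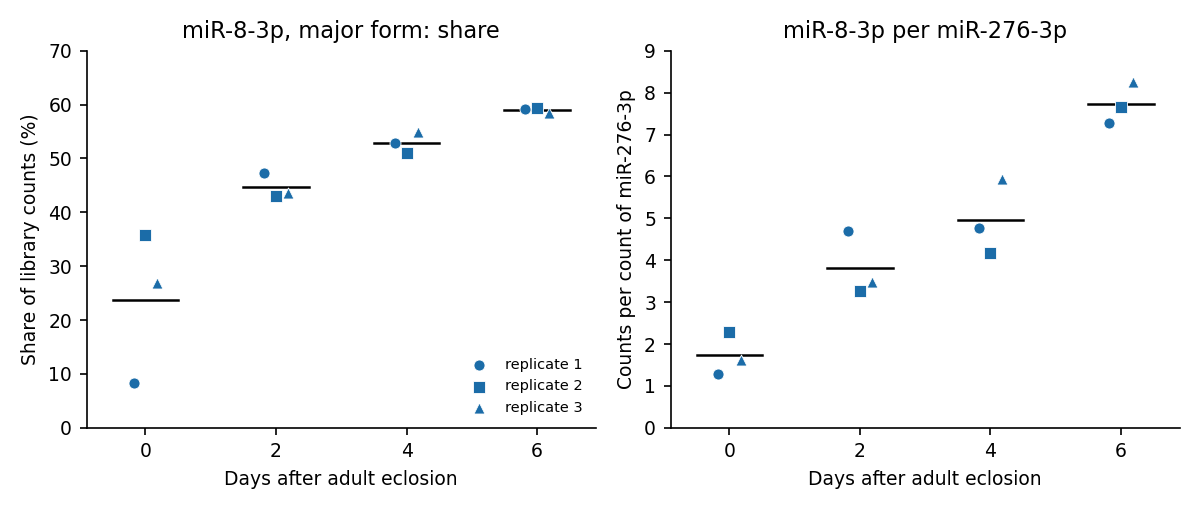
Left, percent of each library's counts held by the major 3p form, by age; right, its counts per count of lmi-miR-276-3p in the same library. Points are libraries and bars the means of 3. The share stands at 8.31% to 35.8% at day 0 and at 58.5% to 59.4% at day 6, and the ratio at 1.28 to 2.29 and at 7.29 to 8.26.

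The 5p arm, the partner strand of the same hairpin, also rose after eclosion. It stood at 10504, 11315 and 13345 CPM in the day 0 libraries and at 27358, 17800 and 17225 CPM at day 2. At day 4 it stood at 29241, 27105 and 27027 CPM, and at day 6 at 25581, 27440 and 23766 CPM. Every later library lay above every day 0 library, days 4 and 6 overlapped, and day 2 replicate 1 stood with the day 4 libraries, well above the other day 2 libraries. Day 0 replicate 1, far below its group in the 3p strand, was close to the other day 0 libraries here.

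miR-8-5p rose 1.77-fold by day 2 (log2 change 0.83, SE 0.24; adjusted p = 0.0372 in edgeR) and 2.37-fold by day 4 (1.25, SE 0.24; adjusted p = 0.00433). At day 6 it was 2.18-fold above day 0 (1.13, SE 0.24; adjusted p = 0.00497), and its change from day 4 to day 6, -0.12 (SE 0.24), did not pass. The day 2 call ended in 10 of the 12 fits that left out a library, with values of 0.58 to 0.87, and passed without day 0 replicate 1 (0.75) and day 6 replicate 3 (0.83). Those of days 4 and 6 held in all 12, at 1.08 to 1.27 and 0.97 to 1.18. Leaving out day 0 replicate 1 gave log2 changes of 0.75, 1.17 and 1.05 for the 3 later ages (adjusted p = 0.0195, 0.00182 and 0.00212 in edgeR). Over the 4 ages it was called as well (adjusted p = 0.00938 in edgeR), except without day 0 replicate 2 (adjusted p = 0.0556) or day 4 replicate 1 (adjusted p = 0.0512).

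The 5p arm took 1.26%, 1.19% and 1.54% of the counts at day 0 and ranked 14 to 18 there. It took 1.89% to 2.64% at day 2, 2.55% to 2.83% at day 4 and 2.02% to 2.61% at day 6, with ranks of 5 to 9 in the 9 later libraries. The shares of day 0 did not overlap with any later age, and those of the later ages overlapped with each other (exact permutation test over the 4 ages, p = 0.00435, adjusted over 6 tests to 0.0087).

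The ratio of the arms is independent of library size, since both strands are counted in the same library, though the strands may be ligated with unequal efficiency and the ratio is read only between ages. There were 6.61, 30.0 and 17.4 counts of the major 3p form per 5p count in day 0 replicates 1, 2 and 3. The ratio was 17.96, 21.4 and 23.1 at day 2, 18.7, 19.96 and 20.8 at day 4, and 28.9, 22.8 and 29.0 at day 6. The lowest and the highest ratio of the series both belonged to day 0, while the later libraries were closer together. The 3p strand made up 86.9% of both arms in day 0 replicate 1, with a 95% Wilson interval of 86.5% to 87.2%, and 94.6% to 96.8% in the other 11 libraries.

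Over the 4 ages the arm ratio did not differ beyond the spread of the libraries (exact permutation test, p = 0.448). The mean log2 ratio was 3.92 ± 1.11 (SD, n = 3) at day 0, 4.37 ± 0.19 at day 2, 4.31 ± 0.08 at day 4 and 4.74 ± 0.20 at day 6. Day 6 exceeded day 0 by 0.82 on this scale, by 0.22 without day 0 replicate 1 (p = 0.273 over the 4 ages, exact) and by 1.32 without day 0 replicate 2, where the test over the ages passed (exact p = 0.00123). The day 0 value therefore rested on which libraries were kept. Over days 2, 4 and 6 alone the exact p was 0.0643, and 0.0321 without day 6 replicate 2. Day 6 lay above day 4 by 0.43 with no overlap between the libraries, at the smallest p that 3 against 3 allow, 0.1 in the exact two-sided test.

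**Figure D5:**
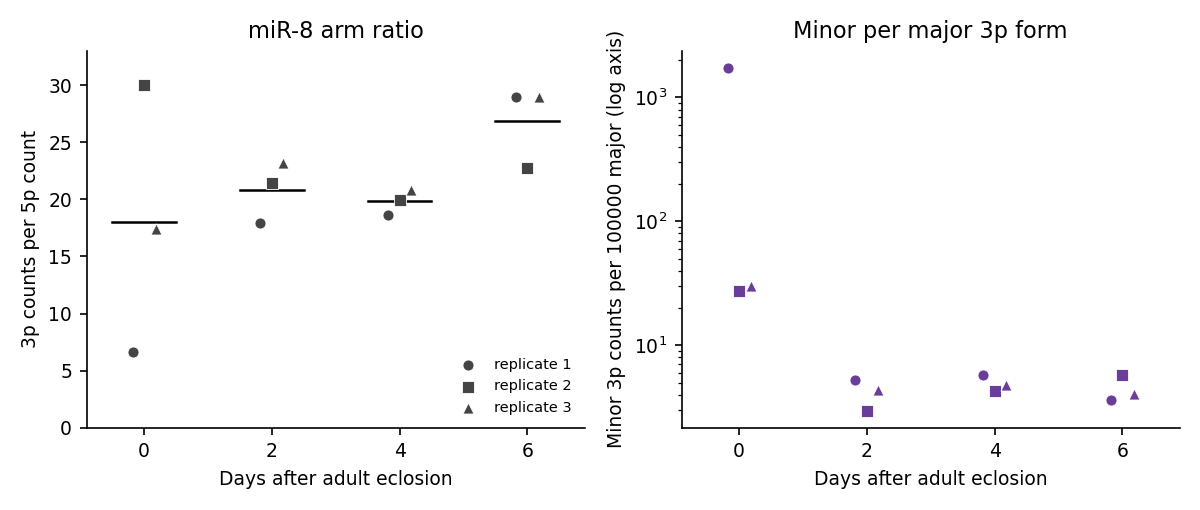
Left, counts of the major 3p form per 5p count in each library by age, with bars at the means of 3 libraries; right, counts of the minor 3p form per 100000 counts of the major form, on a log axis. The arm ratio spreads from 6.61 to 30.0 at day 0 and from 17.96 to 29.0 later, and the minor form stands at 27.3 to 1734 per 100000 at day 0 and at 2.97 to 5.76 later.

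Beside miR-8, 5 other miRNAs had both arms at 10 or more counts in every library: miR-10, miR-276, miR-281, miR-9a and miR-71. The 3p strand was the more abundant in miR-8, miR-276 and, on average, miR-281, and the 5p strand in the others. Leaving out day 0 replicate 1, the log2 ratio of the miR-8 arms ranged over 0.78, against 0.73 for miR-10, 0.66 for miR-71, 0.98 for miR-281, 1.74 for miR-9a and 3.19 for miR-276. In day 0 replicate 1 the ratio of miR-8 was 2.72, below its range of 4.12 to 4.91 in the other libraries. That of miR-281 was -2.07 against 0.15 to 1.13, that of miR-71 -4.84 against -3.0 to -2.34, and that of miR-9a -3.32 against -6.51 to -4.76, while miR-10 and miR-276 lay within their ranges. The departure of this library in the arm ratio was therefore not confined to miR-8 among these 6 pairs.

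The minor 3p form, whose counts most insect rows of miR-8 share, was rare in the locust libraries and lower at every later age than at day 0. It had 555, 214 and 152 counts in the day 0 libraries, 58, 9 and 19 at day 2, 65, 24 and 34 at day 4, and 37, 21 and 34 at day 6. As levels these were 1204, 92.7 and 70.1 CPM at day 0, 26.0, 11.3 and 17.5 at day 2, 31.4, 22.9 and 27.0 at day 4, and 26.9, 35.8 and 27.7 at day 6. Each day 0 library lay above all 9 later libraries, and day 0 replicate 1 lay far above the other day 0 libraries.

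The minor form fell against day 0, with log2 changes of -4.60 at day 2 (SE 0.99; adjusted p = 0.0105), -4.05 at day 4 (SE 0.96; adjusted p = 0.00885) and -3.91 at day 6 (SE 0.96; adjusted p = 0.00895), all in edgeR, where 11.6%, 18.9% and 25.3% of miRNAs fell. Without day 0 replicate 1 these values were -2.11 (SE 0.37; adjusted p = 0.0039), -1.58 (SE 0.36; adjusted p = 0.00558) and -1.44 (SE 0.36; adjusted p = 0.00816), with 13.7%, 20.0% and 25.3% of miRNAs called lower. The direction and the calls held in edgeR, at a smaller size, while DESeq2 gave no p-value for the minor form in any comparison. The day 2 call ended without day 2 replicate 3, at -4.71 (adjusted p = 0.0552). Between the later ages the changes were 0.55, 0.14 and 0.69 for day 4 against day 2, day 6 against day 4 and day 6 against day 2, with SEs of 0.88, 0.88 and 0.89, and none passed. The counts at day 2, of 9 to 58 reads, limit what could be detected there.

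Per 100000 counts of the major form there were 1734, 27.3 and 30.1 counts of the minor form at day 0. The later libraries held 5.29, 2.97 and 4.38 at day 2, 5.76, 4.24 and 4.80 at day 4, and 3.64, 5.73 and 4.02 at day 6. Day 0 stood above the later ages without overlap (exact permutation test over the 4 ages, p = 0.0125, adjusted over 6 tests to 0.0187, and p = 0.0125 without day 0 replicate 1), and the later ages overlapped (p = 0.686, exact, over days 2, 4 and 6). The mean log2 ratio of day 6 minus that of day 0 was -4.66, and -2.69 without day 0 replicate 1.

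Day 0 replicate 1, where the minor form was highest, was also the library with 2214 counts of Lepidoptera-only numbers, led by mse-miR-2763 with 598, bmo-miR-3338-3p with 547 and bmo-miR-2766-3p with 399, each at 0 in the other 11 libraries. Day 0 replicates 2 and 3 held 5 and 0 such counts beside 214 and 152 of the minor form, and the difference between day 0 and the later ages was as stated above without replicate 1. The row cte-miR-8, of an annelid worm and joined to the minor form, exceeded dme-miR-8-3p by 402 counts in day 0 replicate 1, by 52 and 44 in the other day 0 libraries and by 0 to 14 later. In normalised CPM the 5p arm was no higher in that library than in day 0 replicates 2 and 3. Relative to other strands it was higher there, at 13.1% of both arms against 3.23% and 5.42%. Per count of lmi-miR-276-3p it stood at 0.193 against 0.0765 and 0.0931. The silkworm row bmo-miR-8-5p held 96.1% to 98.7% of the counts of tca-miR-8-5p, lowest in day 0 replicate 1 (4655 against 4843 counts). The part of the Lepidoptera-only reads in the minor form was not tested.

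The miRNAs with the highest correlation with miR-8-3p over the 12 libraries were miR-9c-5p (Pearson r = 0.974 of log2 CPM), miR-12-5p (0.958), miR-13b-3p (0.955), miR-79 (0.943) and miR-279 (0.897), among 54 with at least 100 CPM on average. These values describe libraries that share their scaling, and the order depended on day 0 replicate 1. Without it they were 0.911, 0.823, 0.852, 0.779 and 0.579, at ranks 1, 6, 3, 10 and 13, and miR-252-5p, at -0.614 with all libraries, stood at rank 2 with 0.889. miR-252-5p was named after its values were seen.

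miR-9c-5p, first in both orders, ranged from 11164 to 22860 CPM at day 0 and from 29028 to 32726 CPM at day 6, with no overlap. Its log2 change at day 6 was 0.84 (SE 0.26; adjusted p = 0.0276 in edgeR), and 0.61 without day 0 replicate 1 (adjusted p = 0.00812). The other 4 were not called at day 6 with all 12 libraries. Without day 0 replicate 1, miR-12-5p (0.93; adjusted p = 0.0486 in edgeR), miR-13b-3p (0.55; adjusted p = 0.0411) and miR-79 (0.65; adjusted p = 0.0375) were called as well. Of all miRNAs tested, 14.7% were called higher at day 6, and 20.0% without that library. These 5 miRNAs were picked for their correlation with miR-8-3p in the same libraries. Their rise from day 0 to day 6 therefore follows in part from the choice, and the calls are no separate support. The 5p arm, which the rule set aside as a member, had r = 0.825 with the 3p strand, and 0.831 without day 0 replicate 1.

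The lowest correlations with miR-8-3p over the 12 libraries were those of miR-125-5p (r = -0.948), miR-184-3p (-0.944) and miR-278 (-0.934). Without day 0 replicate 1 they were -0.793, -0.926 and -0.787, at ranks 46, 54 and 45 of 54, and miR-10-3p (-0.923) and miR-263b-5p (-0.916), named after their values were seen, lay below miR-125-5p and miR-278. miR-184-3p, lowest of all without that library, stood at 55572 to 126535 CPM at day 0 and at 30527 to 36225 CPM at day 6, with no overlap. Its log2 change was -1.39 (SE 0.29; adjusted p = 0.00409 in edgeR), and -1.003 without day 0 replicate 1 (adjusted p = 0.00054). In both fits 25.3% of all miRNAs were called lower. As miR-184-3p was picked for its correlation in the same libraries, its fall follows in part from the choice and is no separate support.

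Of 18 rows tested for miRNAs tied to metabolism and growth in flies (miR-14, miR-278, miR-277, miR-33, let-7, bantam, miR-305, miR-9 and miR-184), 3 rose (miR-9c-5p and both rows of miR-33) and 5 fell (miR-184-3p, let-7, miR-278 and both arms of miR-9a) between day 0 and day 6. Of the miR-33 rows, pma-miR-33a was joined to no row with an arthropod name. The median log2 change of the 18 rows was -0.15 against 0.10 for all miRNAs. Without day 0 replicate 1, 3 rose and 6 fell, with a median of 0.06 against 0.27. With 14.7% of all miRNAs called higher and 25.3% called lower at day 6, and 20.0% and 25.3% without that library, these counts lie near the background and are not a result about the list.

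miR-33, which in flies and mammals lies in a gene of sterol regulation, stood at 73.7, 107 and 98.2 CPM at day 0 and at 967, 938 and 65.2 CPM at day 6. Day 6 replicate 3 thus lay below all day 0 libraries and the groups overlapped, beside a called log2 change of 2.81 (SE 0.72; adjusted p = 0.00994 in edgeR), or 2.67 (adjusted p = 0.0261) without day 0 replicate 1. miR-278, needed for normal energy balance in flies, fell at day 6, with a change of -2.41 (SE 0.46; adjusted p = 0.0026 in edgeR) that was -1.54 (SE 0.23; adjusted p = 0.000478) without day 0 replicate 1.

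Of 5 rows for miRNAs with a role in mosquito fat body or reproduction (miR-275, miR-277, miR-276, miR-1174, miR-1890 and miR-989 were listed), 0 rose and 1 fell, dan-miR-276b (-2.20; adjusted p = 0.00994 in edgeR), with a median of -0.37. Without day 0 replicate 1, 2 fell, dan-miR-276b (-2.55; adjusted p = 0.000478 in edgeR) and miR-276-3p, as given above. The median was then 0.18 against 0.27 for all miRNAs, and miR-275, not called in either fit, moved from -1.05 to 0.24. Of all miRNAs, 14.7% were called higher and 25.3% lower at day 6, and 20.0% and 25.3% without day 0 replicate 1. With 5 rows tested, these counts are not a result about the list. The row dan-miR-276b was rare, at 8.68, 32.9 and 33.2 CPM at day 0 and 6.55, 5.12 and 4.89 CPM at day 6. miR-1174 and miR-1890 were at 0 in all libraries.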

How the data were processed

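Small RNA of locust fat body was sequenced in 12 libraries. TRIzol was used for extraction and a standard Illumina protocol for the libraries, per the labels. The authors deposited raw counts per mature miRNA name, for 26711 names under 115 species prefixes. For the aligner, mismatches allowed, miRNA release and genome, the sources used here give no name. Groups follow the titles, columns were matched through the descriptions, and 0 columns belonged to other samples. The column headers number the day 0 libraries 1, 3 and 4 and the later ones 2, 3 and 4. The labels name no batch.

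Reads appear to be counted under each matching name. Rows of at least 120 counts (1513) were joined to 154 profiles: within a miRNA number if they differed by no more than 25% plus 5 counts in any library, between numbers by no more than 5% plus 3 counts. Profiles forming a stable share of a more abundant profile of their number and arm (factor 1.5, or 2.5 counting SDs, with 1 library excepted) were added to it, which gave 101 miRNAs. Each carries the counts of its most abundant row, except that the 3 forms of miR-8 carry those of the row named. An arthropod name is among the rows of 81 of the 101 miRNAs.

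Counts were tested with edgeR 4.0.16 in R 4.3.3 (limma 3.58.1): TMM, filterByExpr with a minimum of 10, then glmQLFit and glmQLFTest over the 12 libraries by age. Calls need an adjusted p (Benjamini-Hochberg, 95 miRNAs) under 0.05, and SEs are the log2 change over the square root of F. Shares and log2 ratios were compared by exact permutation of the between-age sum of squares, 0.5 being added to the counts of the minor and major form. The alternatives were RLE factors, total counts, miR-8 left out of the scaling, no filter, DESeq2 1.42.0, a replicate block, each library left out, only the ages compared, and other treatments of the rows. Fits without day 0, the ratio to miR-276-3p, tests of days 2, 4 and 6 alone and cte-miR-8 as the minor form were added after seeing the data. The edgeR test was first tried on simulated counts. Beside the members, the text names the 5 miRNAs with an arthropod name most like miR-8-3p by correlation and the 3 least like it, at 100 CPM or more, with list members called. The members and lists were chosen with earlier results of these data known. Python 3.11.15, NumPy 2.4.6, pandas 2.3.3, SciPy 1.17.1 and matplotlib 3.10.9 were used.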

Additional observations from a re-analysis of the deposited data

How the results depend on the processing

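For miR-8-3p over the 4 ages the adjusted p was 0.0266 with RLE factors, 0.00294 in DESeq2 1.42.0 and 0.025 with arthropod names alone. It did not pass in edgeR with total counts (0.0922), with miR-8 left out of the scaling (0.0544) or with no filter (0.0949). Nor did it pass with a replicate block (0.113), every row as it stands (0.0817) or distinct profiles summed (0.0634). Over the 12 fits that left out a library, miR-8-3p had an adjusted p of 0.00119 to 0.102 and was called in 2. Its log2 change at day 4 was no longer called without a filter on low counts (1.37) or in a fit of the 2 ages alone (1.40), where those of day 6 (1.59), of miR-8-5p at days 2 and 6 (0.84 and 1.04) and of the minor form at days 2 and 4 (-4.57 and -3.96) also did not pass. With single libraries left out, miR-8-3p ranged from 0.57 to 1.37 at day 2 and from 0.94 to 1.73 at day 4, miR-8-5p from 0.58 to 0.87 at day 2 (adjusted p over the 4 ages 0.00464 to 0.0556), the minor form from -5.25 to -2.11 at day 2, and the day 6 excess in log2 arm ratio from 0.22 to 1.32 over day 0 and from 0.26 to 0.48 over day 2. Over day 2, the day 6 ratio of minor to major form differed by 0.08, from -0.14 to 0.25 with single libraries left out, and by -0.040 with 5 counts added. The change of the minor form from day 4 to day 6 was -0.0062 when scaled by total counts, against 0.14. Total counts moved the median of all miRNAs at day 6 against day 0 from 0.10 to -0.30, and miR-8-3p stood 1.58 and 1.62 above that median. DESeq2 gave no p-value, adjusted or not, for the minor form, beside log2 changes of -4.88, -4.24 and -4.10 at days 2, 4 and 6 against day 0. The rise in share from day 0 to day 6, 35.4 percentage points with joined rows, was 12.2 with distinct profiles summed and 5.33 with every row in the denominator, in which other miRNAs are counted under many names; its p was the smallest possible in each. Apart from the latter, the causes were not tested. Reads of the minor form, 9 to 65 in the later libraries, limit the comparisons among them.

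The replicate numbers are those of the titles. In the column headers, day 0 replicate 1 has number 1, while replicate 1 of each later age has number 2. Pairing by header number was not tested. By the title numbers no clear pairing was seen, though 3 libraries per age give this check little power. Same-numbered libraries had correlations of -0.683 to 0.349 in their deviations. Of 18 pairs, 6 exceeded 0.1, and 3 of 12 libraries correlated best with their own number. With the numbers as a block, miR-8-5p at day 2 (0.81; adjusted p = 0.0888) and miR-8-3p at day 4 (1.43; adjusted p = 0.0502) were not called in edgeR, while the share of miR-8-3p (exact p = 0.00174), the minor form per major form (exact p = 0.0469) and the arm ratio (exact p = 0.431) stayed on the same side of 0.05.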
